A study of Equus caballus with 23 samples.

Results

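The sarcoplasmic reticulum calcium handling genes described here are PLN, ATP2A2, ATP2A1, CASQ1, CASQ2, RYR1, SRL, DHRS7C, S100A1 and CACNA2D1. They were taken by symbol, and each symbol was matched to its Ensembl identifier through the symbol column of the authors' deposited tables. All 10 symbols had 1 identifier among the 26991 genes counted, and all 10 were among the 11545 genes that passed the filter on low counts. RNA was sequenced from needle biopsies of gluteus medius, the large croup muscle, of Arabian horses in training for flat racing. The 3 time points were T0, untrained horses aged 2.5 years (5 libraries, 3 male and 2 female), T1, horses of 3 years that had completed intense gallop work ahead of the racing season (8 libraries, 4 male and 4 female), and T2, horses aged 3 years at the end of that season (10 libraries, 7 male and 3 female). Age and training cannot be told apart in comparisons with T0. T1 and T2 share the label of 3 years, yet racing and the time that passed cannot be told apart between them. The balance of the sexes also differed between time points. Libraries are numbered m1 to m23 in the labels, which leave it unsaid whether any horse gave samples at more than 1 time point. The p-values therefore reflect only how far these libraries spread. A biopsy is bulk tissue, in which fewer cells of a type and less RNA per cell cannot be told apart.

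In resting muscle fibres, calcium is stored in the sarcoplasmic reticulum, a membrane network around the myofibrils. A nerve impulse opens the release channel RYR1 through the voltage sensor in the adjoining surface membrane, calcium binds the thin filament, and pumps of the SERCA family then return it to the store, where calsequestrin and sarcalumenin hold it. Fast and slow fibres run this cycle with different versions of the same parts. ATP2A1 encodes SERCA1, the pump of fast fibres, and CASQ1 the calsequestrin that prevails in them, while ATP2A2 encodes SERCA2, the pump of slow fibres and heart. PLN encodes phospholamban, a brake on SERCA2, and CASQ2 the calsequestrin of slow fibres and heart. No sequence of these genes was used here.

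Total counts were between 12185608 and 23641809 per library, and mitochondrially encoded genes took 36.0% to 56.7% of them. Levels are given as CPM (counts per fixed total, on TMM-scaled library sizes) and are compared between libraries, not between genes, since gene length was not corrected for. Skeletal muscle contractile genes were abundant in every library, and no tested marker of any listed cell type was at 0. None of the 4 listed erythroid markers had an identifier under its symbol, so red blood cells were not assessed. The summed level of 12 slow fibre contractile genes ranged over 10610 to 37950 CPM at T0, 35100 to 146000 CPM at T1 and 13760 to 50160 CPM at T2. The summed level of 12 fast fibre identifiers ranged over 50350 to 107800 CPM at T0, 3799 to 56010 CPM at T1 and 50910 to 120000 CPM at T2. MYH7, the slow myosin heavy chain, reached 66050 CPM in m3, the highest T1 library. Library m3 stood apart at T1, with TNNI2, a fast troponin, at 102.3 CPM against 578.1 CPM in the next lowest T1 library, and with TNNT3 at 83.9 CPM against 1342 CPM. For PLN, ATP2A2, ATP2A1, CASQ2 and S100A1, T1 minus T0 differences are given with and without m3. For ATP2A1, CASQ2 and S100A1 the T2 minus T1 differences are also given both ways. Fibre marker differences are given only with m3.

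At T1 the slow fibre pump ATP2A2, its brake PLN, CASQ2 and S100A1 were higher than at T0, between 2.69 and 4.22 times, and CASQ1 was lower. At T2 the levels of PLN, ATP2A2 and S100A1 were lower again than at T1, while ATP2A1, CASQ1 and DHRS7C were higher. RYR1 passed the test in none of the 3 comparisons. CACNA2D1 was lower at T2 than at both earlier time points, and SRL was lower at T2 than at T0. For T1 minus T0, 4 of the 10 genes were higher and 1 was lower at an adjusted p below 0.05 in edgeR's quasi-likelihood test, where 3.57% of all 11545 genes were higher and 3.34% were lower (6.91% either way). For T2 minus T1, 3 were higher and 4 were lower, against 12.6% and 15.1% of all genes (27.6% either way). For T2 minus T0, 0 were higher and 2 were lower, against 6.73% and 9.30% of all genes. The median log2 fold change of the 10 genes was -0.08, -0.48 and -0.08 in these comparisons, beside -0.02, -0.01 and -0.03 over all genes tested. T1 libraries enter both T1 minus T0 and T2 minus T1, so opposite signs in the 2 comparisons are not independent of each other.

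**Figure D1:**
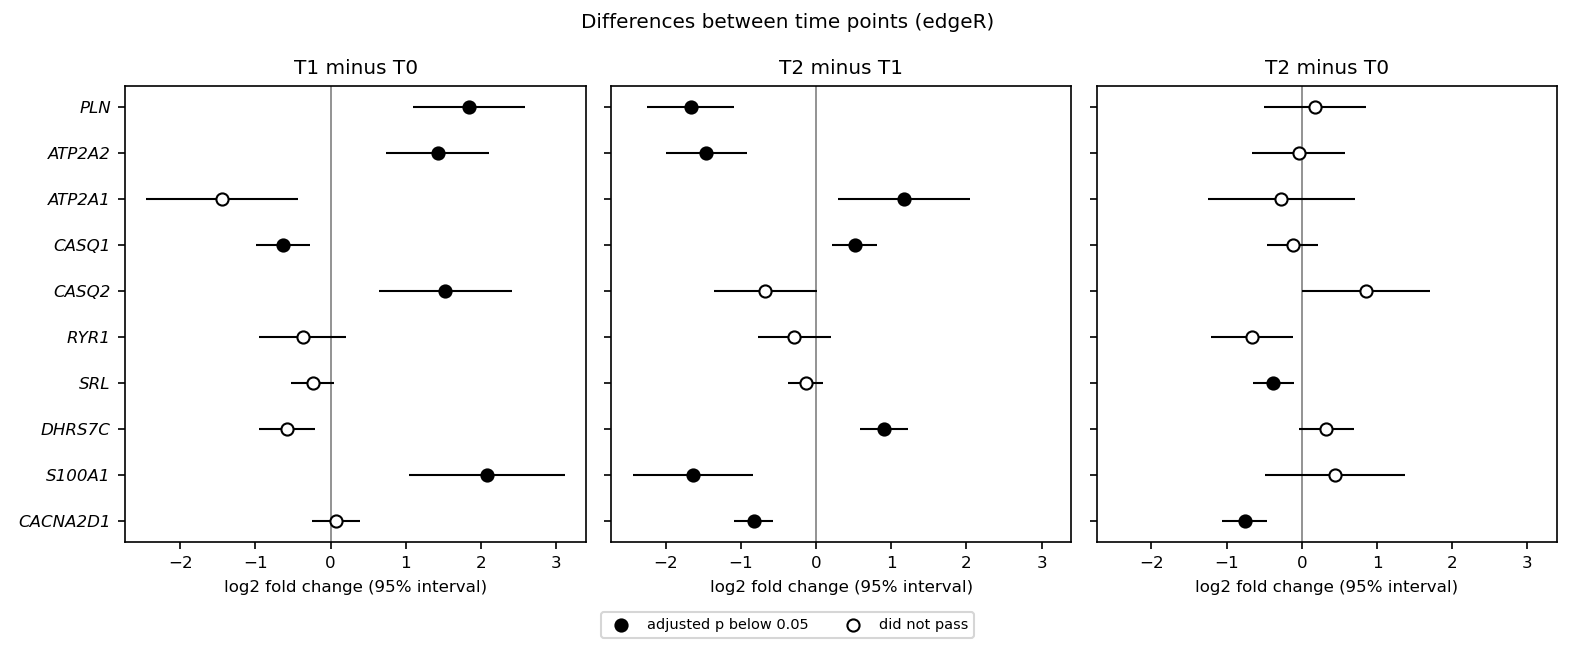
Log2 fold changes of the 10 calcium handling genes in the 3 comparisons, with 95% intervals; filled points had an adjusted p below 0.05 in edgeR's test over 11545 genes. PLN, ATP2A2 and S100A1 lie right of 0 for T1 minus T0 and left of 0 for T2 minus T1, and for T2 minus T0 only SRL and CACNA2D1 are filled, both left of 0.

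PLN (ENSECAG00000003864, chromosome 10, 66753396 to 66753717 in the coordinates of the authors' tables, whose build is not named) had the smallest annotated span of the 10, at 322 bp. At T0 its level was 19.6 CPM in m13, 35.8 CPM in m10, 39.0 CPM in m9, 45.1 CPM in m8 and 86.5 CPM in m12. At T1 it was lowest at 89.0 CPM in m4, had a median of 118 CPM and was highest at 319 CPM in m3. At T2 it was lowest at 29.9 CPM in m19, had a median of 51.0 CPM and was highest at 80.8 CPM in m23. Every T1 library was above every T0 and every T2 library, and T0 and T2 overlapped. PLN averaged 162 ± 85.7 CPM at T1 (SD, n = 8) against 45.2 ± 24.9 CPM at T0 (SD, n = 5), which is 1.85 ± 0.36 on the log2 scale (SE, edgeR adjusted p = 0.00397). At T2 it averaged 51.0 ± 17.3 CPM (SD, n = 10), a log2 difference from T1 of -1.67 ± 0.28 (SE, edgeR adjusted p = 0.000213). The T2 minus T0 difference was 0.18 on the log2 scale with a 95% interval of -0.50 to 0.85 (edgeR adjusted p = 0.739).

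ATP2A2 (ENSECAG00000007671, chromosome 8, 21486134 to 21540354) encodes the pump that PLN restrains. The T0 libraries had 613 CPM in m13, 538 CPM in m10, 939 CPM in m9, 745 CPM in m8 and 1754 CPM in m12. The T1 libraries were lowest at 1777 CPM in m4, with a median of 2337 CPM, and highest at 3441 CPM in m3. At T2 it was lowest at 446 CPM in m14, had a median of 665 CPM and was highest at 1988 CPM in m23. The T1 libraries were all above the T0 libraries, narrowly so for m4 over m12, and T2 overlapped T1 through m23. ATP2A2 averaged 2465 ± 627 CPM at T1 (SD, n = 8) against 918 ± 492 CPM at T0 (SD, n = 5), or a difference of 1.43 ± 0.33 on the log2 scale (SE, edgeR adjusted p = 0.0111). At T2 it averaged 893 ± 465.6 CPM (SD, n = 10), a log2 difference from T1 of -1.46 ± 0.26 (SE, edgeR adjusted p = 0.000293). The T2 minus T0 difference was -0.04 with a 95% interval of -0.66 to 0.58 (edgeR adjusted p = 0.946).

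ATP2A1 (ENSECAG00000012593, chromosome 13, 19914624 to 19930125), the fast fibre pump gene, ran the other way. Before training the level was 9183 CPM in m13, 5610 CPM in m10, 5219 CPM in m9, 3112 CPM in m8 and 5456 CPM in m12. At T1 it was lowest at 39.1 CPM in m3, had a median of 2374 CPM and was highest at 3104 CPM in m6, with m11 at 1002 CPM. At T2 it was lowest at 3111 CPM in m21, had a median of 4472 CPM and was highest at 8184 CPM in m17. No T1 library reached the lowest T0 or T2 library, although the gap at that edge was a few CPM. ATP2A1 averaged 2107 ± 1082 CPM at T1 (SD, n = 8) against 5716 ± 2187 CPM at T0 (SD, n = 5). The log2 fold change of -1.44 ± 0.49 (SE) did not pass (edgeR adjusted p = 0.0757), and without m3 it was -1.24 and passed (edgeR adjusted p = 0.00846). At T2 it averaged 4734 ± 1618 CPM (SD, n = 10), a rise over T1 of 1.17 ± 0.43 on the log2 scale (SE, edgeR adjusted p = 0.0438). Without m3 the rise was 0.97 (edgeR adjusted p = 0.00323). It did not pass in 11 of the 18 fits that left out 1 library, those without m1, m2, m4, m11, m15, m16, m17, m18, m19, m22 or m23, with an adjusted p of at most 0.0829. The T2 minus T0 difference was -0.27 with a 95% interval of -1.251 to 0.71 (edgeR adjusted p = 0.724).

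The share of each pump gene in the counts of both does not depend on the scaling between libraries. ATP2A2 took 6.25% (m13) to 24.3% (m12) of the counts of both pump genes at T0, with a median of 15.3%. At T1 it took 37.6% (m6) to 98.9% (m3), with a median of 46.8%. At T2 it took 6.57% (m17) to 30.7% (m23), with a median of 15.2%. Every T1 share was above every T0 and T2 share, and in m3 nearly all pump counts were those of the slow fibre pump. PLN per ATP2A2 count had a median of 0.0493 at T0, 0.0581 at T1 and 0.0535 at T2, and the 3 ranges overlapped. These shares and ratios were not tested, and reads of 50 bases that fit both pump genes were divided between them by the authors' estimation.

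**Figure D2:**
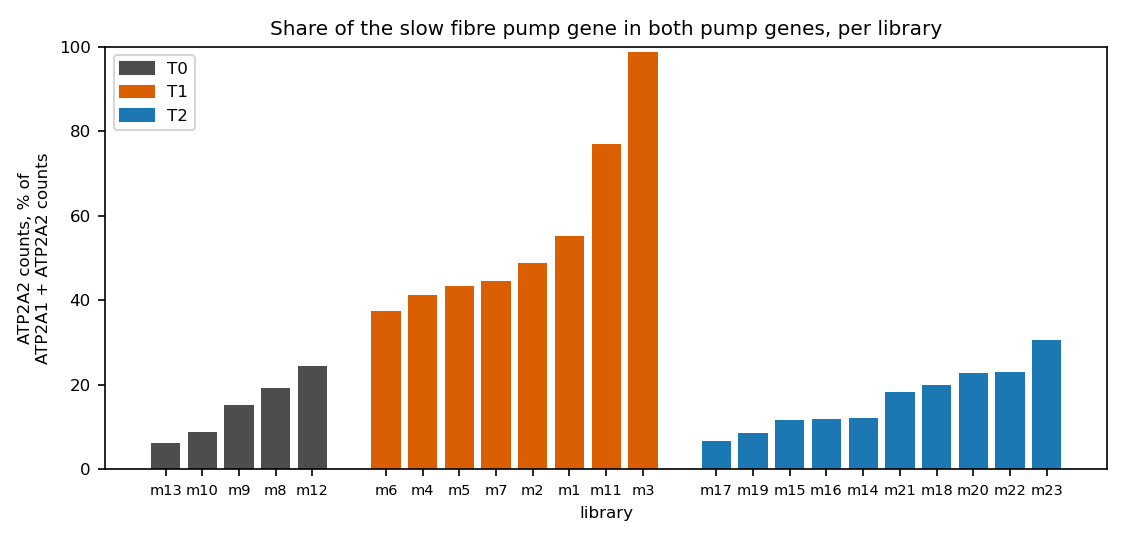
ATP2A2 counts as a percent of ATP2A1 plus ATP2A2 counts in each of the 23 libraries, ordered by value within T0, T1 and T2. All 8 T1 bars stand at 37.6% or above and all T0 and T2 bars at 30.7% or below, with m3 at 98.9%.

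Fibre type genes moved with the pumps and PLN. All 12 slow fibre markers were higher at T1 than at T0, and 11 of the 12 were lower at T2 than at T1. Of the 12 fast fibre identifiers, 4 were lower at T1 than at T0, and 9 were higher and 1 was lower at T2 than at T1. MYH7 differed by 1.86 ± 0.48 on the log2 scale for T1 minus T0 (SE, edgeR adjusted p = 0.0197) and, for T2 minus T1, by -1.83 ± 0.37 (SE, edgeR adjusted p = 0.000946). Of the 2 identifiers with the symbol MYH2, ENSECAG00000022909 differed by -3.42 for T1 minus T0 (edgeR adjusted p = 0.00364) and by 2.84 between T2 and T1 (edgeR adjusted p = 0.00112), while ENSECAG00000024667 differed by 0.17 and -0.00 (edgeR adjusted p = 0.892 and 0.998). TNNI3, the 1 cardiac marker tested, at 0.45 to 7.36 CPM, was higher at T1 than at T0 and lower at T2 than at T1. Of 5 fibroblast markers, 2 were lower at T1 than at T0 (DCN and COL3A1), with summed levels of 64.5 to 164 CPM at T1 and 89.5 to 383 CPM at T0. Of 7 smooth muscle and pericyte markers, 1 was lower at T1 than at T0, LMOD1 at -2.31 ± 0.40 on the log2 scale with T1 wholly below T0 (SE, edgeR adjusted p = 0.00228), and the summed level was 86.6 to 158 CPM at T1 and 137 to 472 CPM at T0. Between T2 and T1, LMOD1 was higher by 1.51 ± 0.35 (SE, edgeR adjusted p = 0.00346). RGS5, a pericyte marker, differed by -0.65 ± 0.16 between the same time points (SE, edgeR adjusted p = 0.00435). CSF1R, 1 of 4 macrophage markers, differed there by -0.77 ± 0.28 (SE, edgeR adjusted p = 0.0404). Its mean level was low, at 1.16 CPM at T2 and 1.975 CPM at T1. Over all genes tested, edgeR called 6.91% between T1 and T0 and 27.6% between T2 and T1. Beside the share of 27.6%, these calls among 7 smooth muscle and pericyte and 4 macrophage markers did not set either list apart. The summed level of smooth muscle and pericyte markers was 103 to 230 CPM at T2, and that of macrophage markers was 4.13 to 8.68 CPM at T2 and 4.59 to 11.8 CPM at T1. Of the listed markers, 5 of 6 endothelial, 2 of 5 adipocyte and 2 of 3 satellite cell markers were tested, and none passed in any comparison. PLIN1, LEP, CIDEC and PAX7 had no identifier under their symbols. So few adipocyte and satellite cell markers cannot show whether those cells differed. The markers of these other cells are named after their values were seen. The part of fibre make-up and of these other cells in the differences of the calcium handling genes was not tested.

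Within a time point, the libraries also differed in fibre balance, taken as the mean log2 CPM of slow fibre genes less that of fast fibre genes. It spanned -4.35 to -2.45 at T0, -1.21 to 4.80 at T1 and -3.68 to -1.27 at T2. Relations with each of the 10 genes were computed within T1 (8 libraries, exact two-sided permutation test) and within T2 (10 libraries, permutation test of 100000 resamples), which made 20 relations, and 6 passed after Benjamini-Hochberg adjustment. PLN had r = 0.93 at T1 (permutation p = 0.000694, adjusted p = 0.00843, rho = 0.83 with permutation p = 0.0154, adjusted p = 0.0615) and r = 0.84 at T2 (permutation p = 0.00132, adjusted p = 0.0088, rho = 0.84 with permutation p = 0.00348, adjusted p = 0.0456). ATP2A2 had r = 0.86 at T1 (permutation p = 0.000843, adjusted p = 0.00843, rho = 0.90 with permutation p = 0.00456, adjusted p = 0.0456) and r = 0.79 at T2 (permutation p = 0.0085, adjusted p = 0.034, rho = 0.77 with permutation p = 0.0127, adjusted p = 0.0615). ATP2A1 had r = -0.97 at T1 (permutation p = 0.00263, adjusted p = 0.0131, rho = -0.86 with permutation p = 0.0107, adjusted p = 0.0615), and its r of -0.63 at T2 did not pass (permutation p = 0.0433, adjusted p = 0.0962, rho = -0.60 with permutation p = 0.0747, adjusted p = 0.166). CASQ2 had r = 0.88 at T1 (permutation p = 0.0131, adjusted p = 0.0437), but its rho of 0.60 did not pass (permutation p = 0.132, adjusted p = 0.221). Without the 2 libraries farthest from the median (m3 and m11 at T1, m17 and m23 at T2), r was 0.93 and 0.71 for PLN, 0.76 and 0.59 for ATP2A2 and -0.69 and -0.73 for ATP2A1 at T1 and T2, and 0.21 for CASQ2 at T1. Of the 20 relations 0 then passed (permutation tests, adjusted). With 6 libraries left at T1, a single T1 relation could not pass this adjustment alone at any r. That count therefore cannot show whether the T1 relations rested on m3 and m11. For CASQ2 the r at T1 itself fell from 0.88 to 0.21 without them. CACNA2D1 had r = -0.65 at T1 (permutation p = 0.138, adjusted p = 0.212) and 0.27 at T2 (permutation p = 0.442, adjusted p = 0.553). For CASQ1, r was -0.03 at T1 and -0.58 at T2 (permutation tests, adjusted p = 0.788 and 0.144). For DHRS7C it was -0.27 and -0.67 (permutation tests, adjusted p = 0.522 and 0.077), and for S100A1 0.89 and 0.31 (permutation tests, adjusted p = 0.0602 and 0.522). Those of RYR1 and SRL did not pass either.

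**Figure D3:**
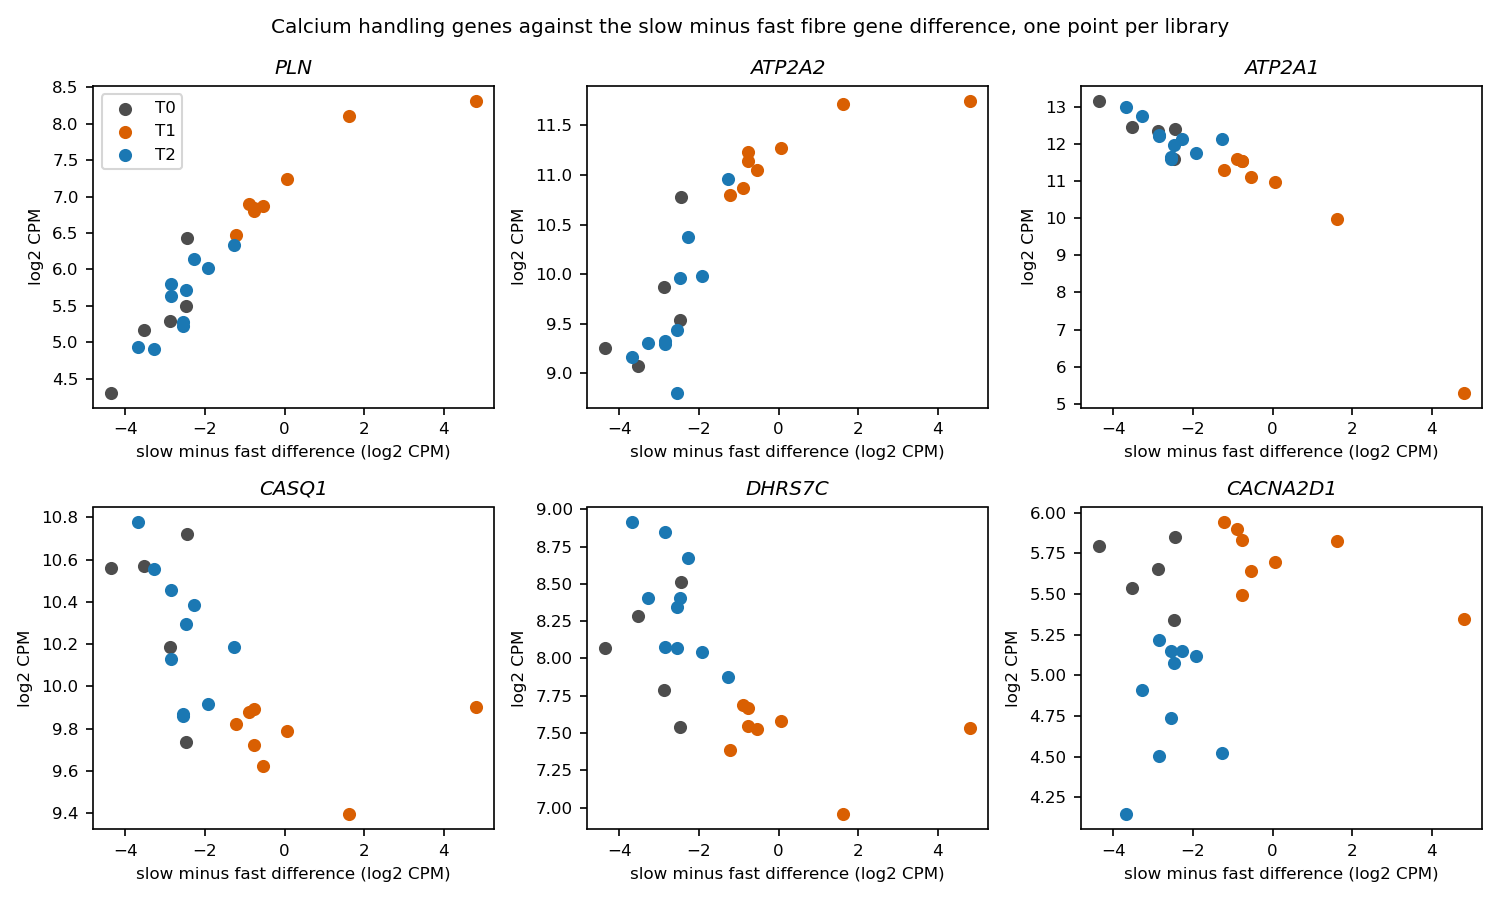
Log2 CPM of 6 calcium handling genes against the mean log2 CPM of slow fibre genes minus that of fast fibre genes, 1 point per library, coloured by time point. PLN and ATP2A2 run upwards and ATP2A1 downwards, with m3 at 4.80 on the horizontal axis. The T2 libraries of CACNA2D1 lie below those of T0 and T1. On the horizontal axis T2 ends at -1.27 and T1 begins at -1.21, so these time points share no value of the difference.

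CASQ1 (ENSECAG00000019807, chromosome 5, 37352960 to 37361248) encodes the main calcium binding protein of the store in fast fibres. The untrained horses gave 1511 CPM in m13, 1517 CPM in m10, 1164 CPM in m9, 855 CPM in m8 and 1687 CPM in m12. The T1 libraries were lowest at 673 CPM in m11, with a median of 895 CPM, and highest at 957 CPM in m3, and at T2 it was lowest at 929 CPM, had a median of 1212 CPM and was highest at 1755 CPM. Library m8 of T0 lay within the T1 range, and T1 and T2 overlapped at their edge. CASQ1 averaged 868 ± 97.5 CPM at T1 (SD, n = 8) against 1347 ± 335 CPM at T0 (SD, n = 5), a difference of -0.63 ± 0.17 on the log2 scale (SE, edgeR adjusted p = 0.0259). This call was lost without m10 (adjusted p = 0.0816), m12 (adjusted p = 0.0636) or m13 (adjusted p = 0.0663), and without m3 and m12 together (edgeR adjusted p = 0.0589). At T2 it averaged 1237 ± 270 CPM (SD, n = 10), a rise over T1 of 0.51 ± 0.15 (SE, edgeR adjusted p = 0.0114), and the T2 minus T0 difference was -0.12 with a 95% interval of -0.47 to 0.22 (edgeR adjusted p = 0.644).

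CASQ2 (ENSECAG00000021854, chromosome 5, 53134872 to 53195934), the slow fibre and cardiac calsequestrin, had the lowest counts of the 10, with 16 to 247 per library. In T0 libraries it stood at 2.03 CPM in m13, 3.47 CPM in m10, 3.18 CPM in m9, 2.01 CPM in m8 and 1.70 CPM in m12. At T1 it was lowest at 3.53 CPM, had a median of 4.60 CPM and was highest at 17.2 CPM in m3, with m11 at 15.6 CPM, and at T2 it was lowest at 2.57 CPM, had a median of 4.31 CPM and was highest at 8.98 CPM in m20. T1 lay above T0 by a narrow margin, with m3 and m11 far above the other T1 libraries. CASQ2 averaged 7.35 ± 5.66 CPM at T1 (SD, n = 8) against 2.48 ± 0.794 CPM at T0 (SD, n = 5), a log2 difference of 1.53 ± 0.43 (SE, edgeR adjusted p = 0.0325). It was 1.246 without m3 (edgeR adjusted p = 0.0546), and the call was lost in 6 of the 13 fits without 1 library (m3, m8, m10, m11, m12 or m13), with an adjusted p of at most 0.0748. The limma voom value was 0.80 (adjusted p = 0.111). CASQ2 did not pass for T2 minus T1 (-0.68 with a 95% interval of -1.36 to 0.00, edgeR adjusted p = 0.129) or T2 minus T0 (0.85 with a 95% interval of 0.00 to 1.70, edgeR adjusted p = 0.153). Without m3 the T2 minus T1 difference was -0.39 (edgeR adjusted p = 0.338).

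SRL (ENSECAG00000024219, chromosome 13, 38693172 to 38730455) encodes sarcalumenin, a calcium binding protein of the store that associates with the pumps. At T0 its level was 330 CPM in m13, 308 CPM in m10, 251 CPM in m9, 173 CPM in m8 and 241 CPM in m12. The range was 182 to 253 CPM with a median of 223 CPM at T1, and 156 to 247 CPM with a median of 196 CPM at T2. All 3 time points overlapped. SRL averaged 201 ± 27.9 CPM at T2 (SD, n = 10) against 261 ± 61.7 CPM at T0 (SD, n = 5), a difference of -0.38 ± 0.13 on the log2 scale at the edge of the threshold (SE, edgeR adjusted p = 0.0499). The call was lost in 10 of the 15 fits without 1 library, those without m9, m10, m13, m14, m16, m17, m18, m20, m21 or m22, in which the adjusted p reached 0.193. The differences for T1 minus T0 (-0.24, 95% interval -0.52 to 0.04) and T2 minus T1 (-0.14, 95% interval -0.37 to 0.10) did not pass (edgeR adjusted p = 0.326 and 0.387).

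RYR1 (ENSECAG00000015344, chromosome 10, 9510873 to 9616030) encodes the calcium release channel. The T0 libraries had 2446 CPM in m13, 1227 CPM in m10, 1298 CPM in m9, 730 CPM in m8 and 1384 CPM in m12. The range was 666 to 1521 CPM with a median of 1090 CPM at T1, and 515 to 1463 CPM with a median of 843 CPM at T2. The 3 time points overlapped throughout, and m13 alone lay above 1521 CPM. RYR1 averaged 896 ± 349 CPM at T2 (SD, n = 10), 1094 ± 327 CPM at T1 (SD, n = 8) and 1417 ± 629 CPM at T0 (SD, n = 5). The log2 difference was -0.37 for T1 minus T0 (95% interval -0.95 to 0.21, edgeR adjusted p = 0.489), -0.29 for T2 minus T1 (95% interval -0.77 to 0.20, edgeR adjusted p = 0.379) and -0.66 for T2 minus T0 (95% interval -1.21 to -0.11, edgeR adjusted p = 0.0864). The T2 minus T0 difference passed without m19 (edgeR adjusted p = 0.0457) or m23 (edgeR adjusted p = 0.0494).

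CACNA2D1 (ENSECAG00000010809, chromosome 4, 26623297 to 27110715) encodes an auxiliary subunit of the voltage sensor in the transverse tubule, and so sits outside the sarcoplasmic reticulum itself. Before training the level was 55.5 CPM in m13, 46.3 CPM in m10, 50.3 CPM in m9, 40.5 CPM in m8 and 57.6 CPM in m12. The T1 libraries were lowest at 40.5 CPM in m3, with a median of 54.2 CPM, and highest at 61.3 CPM, and at T2 it was lowest at 17.6 CPM in m17, had a median of 31.8 CPM and was highest at 37.1 CPM. Every T2 library was below every T0 and every T1 library, and T0 and T1 overlapped. CACNA2D1 averaged 29.6 ± 6.80 CPM at T2 (SD, n = 10) against 52.6 ± 7.30 CPM at T1 (SD, n = 8), a difference of -0.83 ± 0.13 on the log2 scale (SE, edgeR adjusted p = 6.80e-05). Against T0, where it averaged 50.01 ± 6.92 CPM (SD, n = 5), the difference was -0.76 ± 0.15 (SE, edgeR adjusted p = 0.0031). The T1 minus T0 difference was 0.08 with a 95% interval of -0.24 to 0.39 (edgeR adjusted p = 0.833). Among the 10 genes it had the longest span, 487419 bp. Of the 9628 genes with coordinates, 124 span more than 300 kb. Of these, 37.1% were lower for T2 minus T1 and 18.5% for T2 minus T0, with median log2 fold changes of -0.26 and -0.24. Over all 11545 genes tested, which include genes without coordinates, 15.1% and 9.30% were lower, with medians of -0.01 and -0.03. The shares among only the 9628 genes with coordinates were not computed. The part of gene span in its difference was not tested.

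S100A1 (ENSECAG00000022939, chromosome 5, 43904403 to 43908185) encodes a small cytosolic calcium binding protein that is known to modulate the release channel and the pump. The untrained horses gave 30.5 CPM in m13, 93.7 CPM in m10, 95.1 CPM in m9, 58.0 CPM in m8 and 66.8 CPM in m12. At T1 it was lowest at 96.2 CPM in m7, had a median of 203 CPM and was highest at 991 CPM in m3, and at T2 it was lowest at 49.3 CPM, had a median of 84.5 CPM and was highest at 175 CPM in m23. The T1 range began about where the T0 range ended, and T1 and T2 overlapped. S100A1 averaged 291 ± 293 CPM at T1 (SD, n = 8) against 68.8 ± 26.9 CPM at T0 (SD, n = 5), a log2 difference of 2.08 ± 0.50 (SE, edgeR adjusted p = 0.0161) that was 1.48 without m3 (edgeR adjusted p = 0.0169). It did not pass in a fit of T1 and T0 alone (adjusted p = 0.0575). At T2 it averaged 93.5 ± 41.3 CPM (SD, n = 10), a difference from T1 of -1.64 ± 0.38 (SE, edgeR adjusted p = 0.00348), or -1.03 without m3 (edgeR adjusted p = 0.00779). The T2 minus T0 difference was 0.44 with a 95% interval of -0.49 to 1.38 (edgeR adjusted p = 0.523).

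DHRS7C (ENSECAG00000018404, chromosome 11, 52383335 to 52398619) encodes a dehydrogenase of the sarcoplasmic reticulum membrane. In T0 libraries it stood at 268 CPM in m13, 311 CPM in m10, 221 CPM in m9, 186 CPM in m8 and 365 CPM in m12. The T1 libraries were lowest at 124 CPM in m11, with a median of 186 CPM, and highest at 206 CPM, and at T2 it was lowest at 235 CPM, had a median of 332 CPM and was highest at 482 CPM. Every T2 library was above every T1 library, and T0 overlapped both. DHRS7C averaged 339 ± 86.1 CPM at T2 (SD, n = 10) against 181 ± 26.03 CPM at T1 (SD, n = 8), a rise of 0.90 ± 0.15 on the log2 scale (SE, edgeR adjusted p = 0.000195). Against T0, where it averaged 270 ± 70.9 CPM (SD, n = 5), T1 differed by -0.58 ± 0.18 and just missed the threshold (SE, edgeR adjusted p = 0.0509), which it passed in DESeq2 (adjusted p = 0.0251), in limma voom (adjusted p = 0.0353) and without m8 (edgeR adjusted p = 0.0265). The T2 minus T0 difference was 0.33 with a 95% interval of -0.04 to 0.69 (edgeR adjusted p = 0.205).

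**Figure D4:**
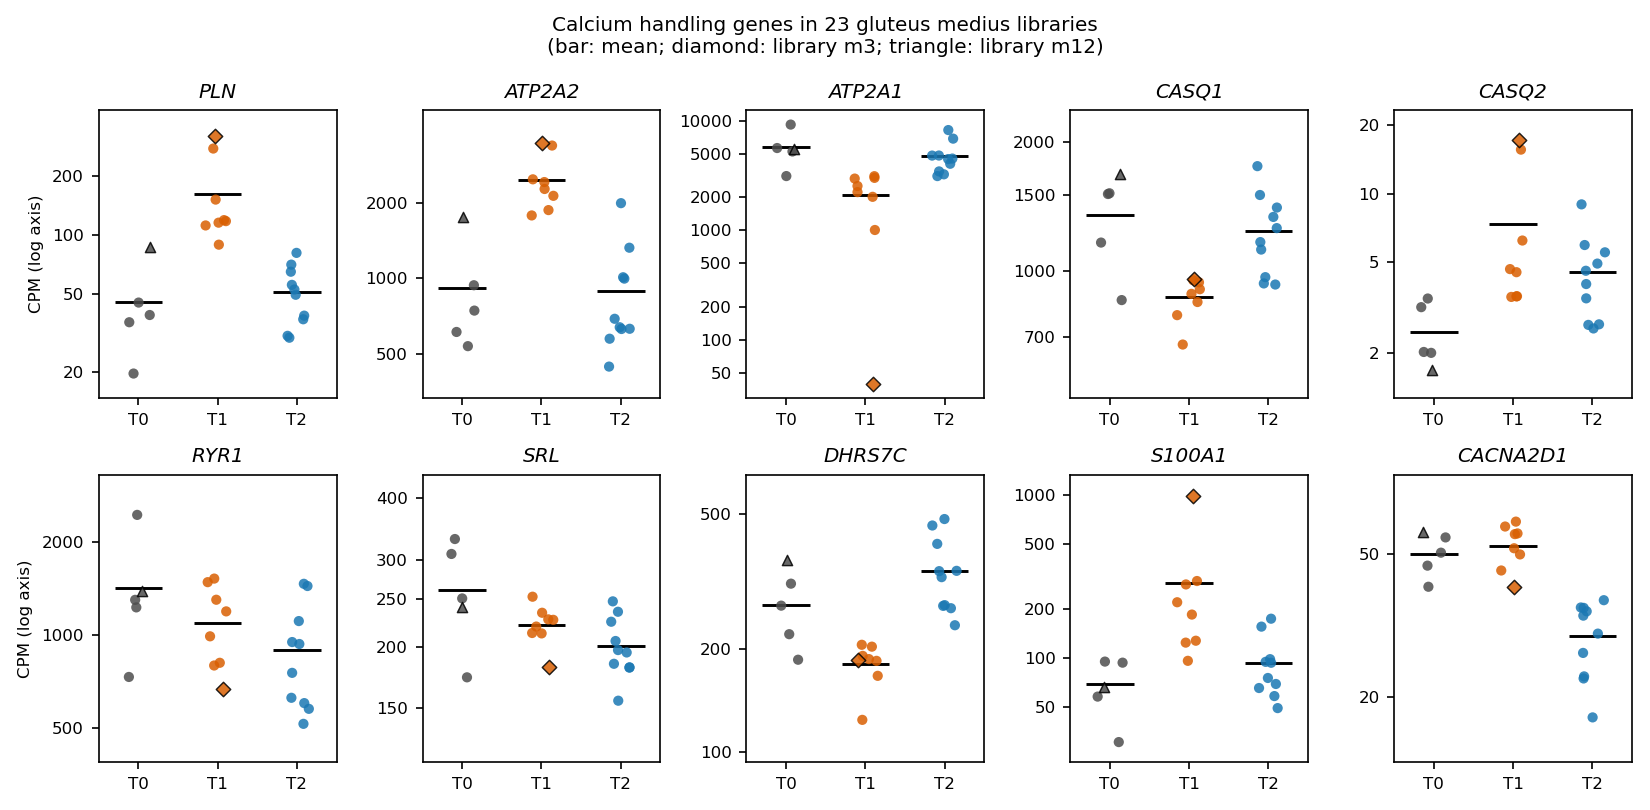
CPM of each of the 10 calcium handling genes in every library at T0, T1 and T2, on log axes, with the mean of each time point. The T1 points of PLN lie between 89.0 and 319 CPM above all others, the T2 points of CACNA2D1 lie below all others, and m3 is the lowest ATP2A1 point at 39.1 CPM.

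By separation of the libraries, PLN, ATP2A2, CASQ2 and S100A1 had T1 wholly above T0 and ATP2A1 wholly below it, where 1.86% and 1.12% of all genes did (2.98% either way). For T2 minus T1, ATP2A1 and DHRS7C were wholly above and PLN and CACNA2D1 wholly below, where 0.788% and 1.45% of all genes were (2.23% either way). For T2 minus T0, CACNA2D1 alone was wholly below, where 1.72% of all genes were, of 2.67% separated either way. PLN, ATP2A2 and S100A1 passed for T1 minus T0 in every fit that left out 1 library, as did PLN, ATP2A2, CASQ1, DHRS7C, S100A1 and CACNA2D1 for T2 minus T1 and CACNA2D1 for T2 minus T0. Without m3 the T1 minus T0 difference was 1.64 for PLN (edgeR adjusted p = 0.00693) and 1.355 for ATP2A2 (edgeR adjusted p = 0.0202). The number of the 10 genes called for T1 minus T0 was 3 without m10, m12 or m13.

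For 8 of the 10 genes, all but SRL and DHRS7C, the 2 genes whose log2 CPM followed most closely over the 23 libraries were sought among 6391 candidates with a symbol. These libraries share time points and fibre make-up, so r is a description, and the r of deviations from the time point means stands after it. PLN ran most closely with MYL2, the slow myosin light chain (0.96 and 0.92), and TPM3, the slow tropomyosin (0.95 and 0.91). ATP2A2 ran with MYH7 (0.97 and 0.91) and KCNIP2, a potassium channel partner (0.95 and 0.89). ATP2A1 ran with MYBPC2, the fast myosin binding protein (0.99 and 0.99), and TNNT3 (0.99 and 0.98). CASQ1 ran with BIN1, a membrane-shaping protein of the transverse tubule (0.94 and 0.92), and LSMEM1 (0.91 and 0.85). RYR1 ran with CAMSAP1 (0.92 and 0.92) and SPEG, a muscle kinase of the triad (0.92 and 0.91). CACNA2D1 ran with PCNX (0.95 and 0.82) and ABCC9, a subunit of ATP-sensitive potassium channels (0.94 and 0.84). S100A1 ran with LDHB, the lactate dehydrogenase subunit of oxidative tissue (0.88 and 0.77), and SIRT5 (0.88 and 0.75). CASQ2 ran with MYL12A (0.80 and 0.69) and ACAT1 (0.78 and 0.68), the lowest values among the genes searched for. Within the 10 genes, CASQ2 and S100A1 had values of 0.80 and 0.75 with each other, so S100A1 followed CASQ2 more closely than ACAT1 did.

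Of 55 other calcium genes listed by role, 45 had a tested identifier. For T1 minus T0, 1 was higher and 1 was lower, with a median log2 fold change of -0.17. Beside them 3.57% and 3.34% of all genes were called (6.91% either way), with a median of -0.02. This list thus had no larger share of called genes than all genes had. CAMK2G, a calcium and calmodulin dependent kinase subunit, averaged 38.5 ± 5.72 CPM at T1 (SD, n = 8) against 53.7 ± 10.1 CPM at T0 (SD, n = 5), a difference of -0.48 ± 0.15 (SE, edgeR adjusted p = 0.0476). The CAMK2G call was near the threshold, and the count of called genes was 0 without m1, m2, m4, m10, m11 or m13 and 1 without m3, m5, m8 or m9.

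For T2 minus T1, 4 of the 45 were higher and 7 were lower, with a median of -0.07. Beside them 12.6% and 15.1% of all genes were called, with a median of -0.01, so the count of this list lay near that of all genes. Mitochondrial calcium uptake had 4 called genes of 6. LETM1 differed by -0.43 ± 0.11 (SE, edgeR adjusted p = 0.00421) and MCU, the uniporter pore, named after its value was seen, by -0.45 ± 0.12 (SE, edgeR adjusted p = 0.00649), while MICU2, a regulator of the uniporter, rose by 0.40 ± 0.10 (SE, edgeR adjusted p = 0.00409). In the other roles, TMEM38B, a counter-ion channel of the store, rose by 0.53 ± 0.17 (SE, edgeR adjusted p = 0.0258). CACNG1, the gamma subunit of the voltage sensor, rose by 0.41 ± 0.13 (SE, edgeR adjusted p = 0.0257). ITPR2, an inositol trisphosphate receptor, fell by 0.74 ± 0.17 (SE, edgeR adjusted p = 0.00209), CAMK2B had a log2 fold change of -0.57 ± 0.14 (SE, edgeR adjusted p = 0.00357), ATP2B3, a plasma membrane calcium pump at 1.37 ± 0.263 CPM at T2 (SD, n = 10), of -0.53 ± 0.17 (SE, edgeR adjusted p = 0.0185) and CAMK2D of -0.33 ± 0.12 (SE, edgeR adjusted p = 0.0349).

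For T2 minus T0, 1 of the 45 was higher and 4 were lower, with a median of -0.16, where 6.73% and 9.30% of all genes were called and their median was -0.03. Of the 8 release channels and partners 3 fell, the inositol trisphosphate receptor genes, with log2 fold changes of -1.0004 ± 0.189 for ITPR2 (SE, edgeR adjusted p = 0.00282), -0.76 ± 0.18 for ITPR1 (SE, edgeR adjusted p = 0.00887) and -0.88 ± 0.27 for ITPR3 (SE, edgeR adjusted p = 0.031). The other 5, RYR2, TRDN, ASPH, HOMER1 and HOMER2, did not pass. ATP2B4, another plasma membrane pump, fell by 1.16 ± 0.27 (SE, edgeR adjusted p = 0.00855), and MICU2 rose by 0.43 ± 0.11 (SE, edgeR adjusted p = 0.0159). Beside these, 3 of 7 tested smooth muscle and pericyte markers were lower for T2 minus T0, with summed levels of 103 to 230 CPM at T2 and 137 to 472 CPM at T0, and their part in the result was not tested. The count of called genes was 8 without m12, 9 without m19 and 8 without m23.

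CACNA1S, TRDN and HRC passed in none of the 3 comparisons. CACNA1S, the pore of the voltage sensor to which the CACNA2D1 product binds, averaged 270 ± 60.1 CPM at T2 (SD, n = 10), 317 ± 41.8 CPM at T1 (SD, n = 8) and 307 ± 108 CPM at T0 (SD, n = 5), with T2 minus T1 at -0.23 (95% interval -0.55 to 0.09, edgeR adjusted p = 0.279). TRDN, triadin, which anchors calsequestrin to RYR1, differed by -0.07 for T1 minus T0 (95% interval -0.48 to 0.34, edgeR adjusted p = 0.892) and, for T2 minus T1, by 0.21 (95% interval -0.13 to 0.55, edgeR adjusted p = 0.356). HRC, a histidine-rich calcium binding protein of the store, differed by 0.11 (95% interval -0.12 to 0.35, edgeR adjusted p = 0.636) and -0.10 (95% interval -0.30 to 0.09, edgeR adjusted p = 0.438). SLN, the sarcolipin gene, and PVALB, the parvalbumin gene, had no tested identifier under those symbols and are not described here.

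**Figure D5:**
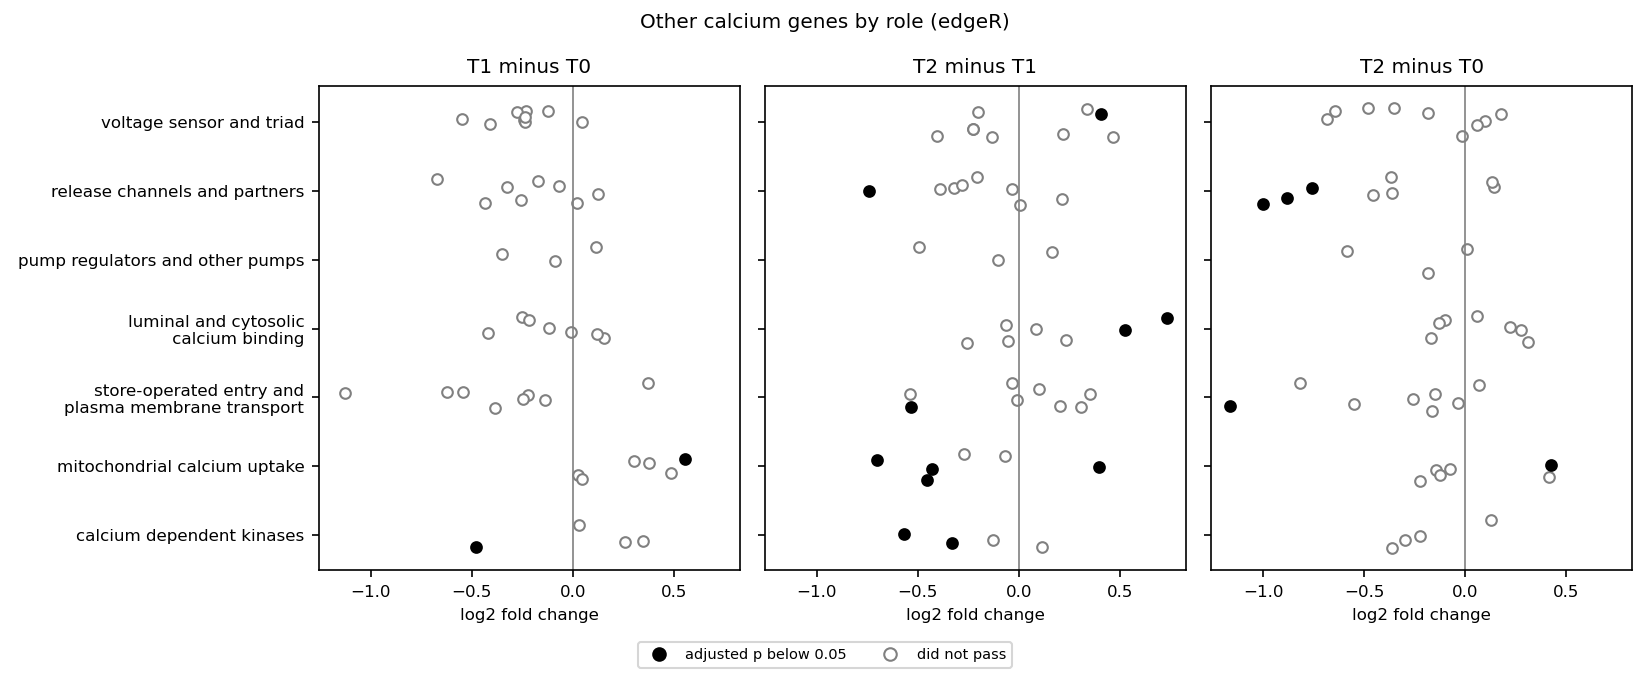
Log2 fold changes of 45 other calcium genes by role in the 3 comparisons; filled points had an adjusted p below 0.05 in edgeR's test over 11545 genes. For T1 minus T0, 2 points are filled, for T2 minus T1, 11 are, 4 of them in mitochondrial calcium uptake, and for T2 minus T0, 5 are, 3 of them inositol trisphosphate receptor genes left of 0.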

How the data were processed

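RNA from 2 mm needle biopsies of the gluteus medius was sequenced in 23 libraries (50 single-end cycles, 6 technical repetitions, per the labels, which do not say how repetitions were pooled). Per the submitters' processing notes, FastQC, STAR, RSEM and DESeq2 were used, without versions. Expected counts, estimated by the authors with RSEM and deposited as whole numbers, cover 26991 genes and 29196 transcripts. Symbols and coordinates came from the authors' deposited comparison tables, which annotate 9628 identifiers, 8842 with a symbol; no source used here names their genome build. Reads that fit paralogs such as ATP2A1 and ATP2A2 were divided by estimation.

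Genes were kept by filterByExpr (minimum count 10, minimum total count 15), leaving 11545 genes with 99.93% of counts. TMM-scaled counts were fitted in 1 model of T0, T1 and T2 with edgeR 4.0.16 in R 4.3.3 (robust quasi-likelihood F test), with Benjamini-Hochberg adjustment over all genes. The standard error was the absolute log2 fold change over the square root of F. On simulated data the test recovered, of 100 genes each changed 2-fold and 4-fold, 87 and 97 for T1 minus T0 with 6 false calls, 94 and 98 for T2 minus T1 with 7, and 89 and 99 for T2 minus T0 with 5. Genes of low mean level were not among those changed. The simulated libraries shared the same levels of all other genes, and none was made to stand apart as m3 did. These rates are therefore not the power for the 10 genes in the real libraries. Alternatives were edgeR's RLE factors, no filter, DESeq2 1.42.0, sex as a covariate, limma 3.58.1 (voom, sample weights), a fit of only the 2 time points compared, a fit that was not robust, leaving out each library, and leaving out m3 and m12. Relations with fibre genes used scipy 1.17.1, and figures matplotlib 3.10.9 in Python 3.11.15.

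The 10 genes, the other lists, the marker lists and the alternatives were chosen with earlier results of these data known. The text names all 10 genes, up to 3 called genes of each role of the wider list with the smallest p, the fixed genes SLN, HRC, TRDN, CACNA1S and PVALB, the 2 genes outside the 10 most like each of 8 members (not SRL or DHRS7C), MYH7 and MYH2. Of 253 pairs of libraries, 0 had identical counts. Some genes of the wider list are counted but not reported here by name. Sequence and read-level data were not used here.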

Additional observations from a re-analysis of the deposited data

Results flagged for a closer look

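Of 42 groups of values tested for a library far from the others by Dixon's test, 5 were flagged, where chance flags about 1 in 20. Library m3 accounted for 3 of them at T1. Its ATP2A1 level of 39.07 CPM was the lowest, with m11 next at 1002 CPM. Its ratio of ATP2A2 to ATP2A1 counts of 88.08 was the highest, with m11 next at 3.359. Its slow minus fast fibre difference of 4.80 (log2 CPM) was the highest, with m11 next at 1.61. Library m11 had the lowest DHRS7C level of T1 at 124.0 CPM, with m4 next at 167.0 CPM. Library m20 had the highest ratio of CASQ2 to CASQ1 counts of T2 at 0.009285, with m16 next at 0.004239.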

How the results depend on the processing

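None of the called log2 fold changes of the 10 genes changed sign under the alternatives run. With limma voom, 1512 genes were called between T1 and T0, in place of 798, and 2940 between T2 and T0, in place of 1851, and the wider list had 7, 18 and 9 called for T1 minus T0, T2 minus T1 and T2 minus T0, in place of 2, 11 and 5. Without m3 and m12, 2947 genes and 9 of the wider list were called for T2 minus T0. For T1 minus T0, 1 of the wider list was called under RLE, with no filter and without m3 and m12. Of the 10 genes, 3 were called for T1 minus T0 in a fit of only those time points, without CASQ2 (adjusted p = 0.0818) and S100A1. For T2 minus T0, 1 was called under RLE, with no filter, with sex as a covariate and in the fit of only those time points, since SRL was lost (edgeR adjusted p = 0.0589, 0.105, 0.0664 and 0.0908). The ATP2A1 call for T2 minus T1 was lost with no filter (adjusted p = 0.102) and in the fit of only those time points (edgeR adjusted p = 0.0639). The number of fibre relations that passed was 3 with MYH7 in place of the fibre difference and 0 without the 2 farthest libraries, in place of 6. Without those 2, the libraries left at T1 were too few for a single T1 relation to pass alone. With MYH7, the relations lost were ATP2A1 (r = -0.91) and CASQ2 (r = 0.83) at T1 and PLN at T2 (r = 0.71). Each then had an adjusted p of 0.058 (permutation tests). At T2 the r of ATP2A1 was 0.11 in place of -0.63. Those of CASQ1, RYR1, SRL and CACNA2D1 at T2 also changed sign, and none of these passed either way. Male minus female gave 1 called gene in DESeq2 and 3 in limma voom, in place of 0.

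In fits without 1 library, called genes ranged over 346 (without m10) to 904 for T1 minus T0, 2665 to 3775 for T2 minus T1 and 986 (without m13; 1075 without m9) to 2414 for T2 minus T0. Of the 10 genes, 3 to 5, 6 to 7 and 1 to 3 were called, and of the wider list 0 to 3, 8 to 15 and 4 to 9. No paired analysis was possible because each library number occurs once and the labels tie no libraries to a shared horse. CASQ2 had the fewest counts of the 10 genes, 16 to 247 per library.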

Other observations

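The transcript table divides both pump genes into transcripts. This division was examined after the values were seen. Transcript ATP2A1-201 held 45.6 ± 2.80% of ATP2A1 counts at T2 (SD, n = 10), against 49.9 ± 1.76% at T1 (SD, n = 8) and 50.3 ± 1.52% at T0 (SD, n = 5). The T2 minus T1 difference was -4.25 points (two-sided exact permutation p = 0.000549, adjusted over 6 comparisons 0.00329) and the T2 minus T0 difference was -4.61 points (exact permutation p = 0.002, adjusted 0.00599). Without m3 and m12 these were -4.40 and -4.69 points (exact permutation tests, adjusted p = 0.00494 and 0.018). The T1 minus T0 difference of -0.36 points did not pass (exact permutation p = 0.706, adjusted 0.847). Transcript ATP2A2-201 held 73.4 ± 15.3% of ATP2A2 counts at T2 (SD, n = 10), 65.6 ± 9.98% at T1 (SD, n = 8) and 72.5 ± 18.1% at T0 (SD, n = 5), and no difference passed. Such shares are estimates by RSEM from short reads, and no read-level check was made.

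Between the sexes, edgeR called 0 of 11545 genes, with 719 at an unadjusted p under 0.05. Among the 10 genes ATP2A2 had the smallest p, at 0.57 ± 0.22 on the log2 scale for male minus female (SE, edgeR p = 0.0176, adjusted p = 0.776). The difference between the sexes in the T1 minus T0, T2 minus T1 and T2 minus T0 changes also gave 0 calls, with 483, 179 and 448 genes at an unadjusted p under 0.05 and none of the 10 genes among them (edgeR interaction terms).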
